A study of Homo sapiens with 2 samples.

Results

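The homeobox developmental regulators examined here were the HOXA, HOXB, HOXC, HOXD, sine oculis, DLX, LHX, EMX, IRX, OTX, MEIS, MSX and NKX genes. Members were taken from the peak annotation by symbol, meaning a family name followed by digits. LHX1, NKX2-1 and antisense genes were left out by the same rule, which used no measured value. Of the 45360 PAX-8 peaks, 123 (0.271%) were assigned to these genes, and they belonged to 42 genes. The RefSeq gene table names 86 genes of these 13 families, so 44 had no peak assigned in the table as used here. Lines may be missing from that table, so a gene without an assigned peak was not taken as unbound, and counts of genes with a peak are lowest counts.

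PAX-8 ChIP-Seq was performed in foam cells made from THP-1, a human monocytic leukaemia cell line. The cells were turned into macrophages over 24 h with PMA, a phorbol ester, at 160 nmol/L, then loaded for 48 h with ox-LDL (oxidized low-density lipoprotein) and treated with C18-3OH, 3-hydroxystearic acid. The labels state that the experiment was repeated once. The data used here held 1 PAX-8 ChIP library and 1 Input library, both from cells that had received all 3 agents, and the peaks were called from the ChIP against the Input in 1 list. There was no sample without C18-3OH and no replicate list, so no difference between conditions could be tested. All intervals below cover counting error only. THP-1 carries a fusion of KMT2A with MLLT3, and it is 1 leukaemic line, which limits it as a model of a macrophage. Each peak has a tag count, a listed fold enrichment, whose definition was not given, and a score of 10 times the negative logarithm of its p-value. The number of reads per library was not given in the sources used here, and the lowest listed values were 11 tags and a score of 40.

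Homeobox proteins bind DNA through the homeodomain, whose usual recognition core is TAATTA or a close relative of it. They set up the body plan and the identity of cells in the embryo. HOX genes lie in clusters and act along the body axis, the MEIS proteins bind DNA beside HOX proteins, and the remaining families pattern the forebrain, eye, limbs, kidney, heart and endocrine organs. In differentiated blood cells many of these genes are silent and marked by Polycomb proteins, while HOXA9 and MEIS1 are known as targets of KMT2A fusions. PAX-8 is itself a developmental regulator, of thyroid and kidney, and binds through a paired domain whose recognition sequence contains TCACGC.

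The start regions of members were examined for both sequences. A 300-base window, from 250 bases before to 50 bases after the start, was present in the RefSeq promoter table (GRCh38.p14) for 51 of the 86 genes. TCACGC stood on either strand in 3 of the 51 windows (5.88%, Wilson 95% interval 2.02 to 15.9%), and in 7.90% of all 27305 windows. These 3 sites are shown because they are the only matches to the PAX core among the members. The 6 bases in capitals are TCACGC or its complement GCGTGA, with up to 10 bases on each side, written 5′ to 3′ on the strand of the gene.
IRX2: gcagatgagcGCGTGAtggacagctg
HOXD8: ctcgtccccgTCACGCtgactttccg
LHX9: caccattacgGCGTGAtcc
The IRX2 site began 65 bases before the start (chr5:2751727-2751752, minus strand), and the nearest peak assigned to IRX2 lay 11.5 kb away. The HOXD8 site began at base 24 of the transcript (chr2:176129718-176129743, plus strand), and HOXD8 had no peak assigned. The LHX9 site began at base 42 (chr1:197912495-197912513, plus strand), and the nearest LHX9 peak was 72.2 kb from its listed start. The start in the promoter table need not be that of the transcript used in the peak list. The longer form GTCACGC, which holds TCACGC, was in 1 of the 51 windows (1.96%) and in 2.61% of all windows.

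The homeodomain core TAATTA, which reads the same on both strands, was in 4 of 51 windows (7.84%, Wilson 3.09 to 18.5%) against 4.98% of all windows. It is printed in capitals below for the same 26-base stretch.
MSX2: actgctcctgTAATTAactcctaatt
HOXD3: attggcgaaaTAATTAattcagcacg
HOXD11: tcacgtgacaTAATTAccaccagaat
EMX2: atccccgcacTAATTAggctcatgaa
These lay at chr5:174724375-174724400, chr2:176157266-176157291, chr2:176107189-176107214 and chr10:117542706-117542731, all on the plus strand of GRCh38.p14. The sites began 197, 31, 81 and 30 bases before the start, in that order. MSX2 was the only gene of the 4 with a promoter-class peak, and HOXD11 and EMX2 had no peak assigned. Members' windows had a median GC content of 62.7% and a median of 24 CpG sites, against 58.3% and 14 over all windows.

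Promoter-class peaks, those within 2 kb of a listed start, were assigned to 10 members: HOXB9, HOXC8, HOXC12, HOXD9, HOXD12, MEIS3, SIX6, DLX4, MSX2 and NKX6-3. That was 11.6% of the 86 genes (Wilson 6.44 to 20.1%), where 13.4% of all 20037 protein-coding genes had such a peak. Each had 1, and the 10 peaks made up 8.13% of the homeobox peaks (4.48 to 14.3%), where 7.48% of the whole list was of this class. At least 1 peak of any class was assigned to 48.8% of members (38.6 to 59.2%), with 54.9% for all protein-coding genes. In each of these shares the homeobox value lay near the background, and the interval held it. The share with a peak of any class pools HOX genes and other members, which lay on opposite sides of the background.

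The 2 promoter windows below are printed because MSX2 had the promoter-class peak closest to a start and HOXD12 the one with the largest fold enrichment. Each gives the 250 bases before the start, 5′ to 3′ on the plus strand (GRCh38.p14, MSX2 at chr5:174724332-174724581 and HOXD12 at chr2:176099545-176099794). Capitals mark the TAATTA site of MSX2, and neither stretch held TCACGC.
MSX2: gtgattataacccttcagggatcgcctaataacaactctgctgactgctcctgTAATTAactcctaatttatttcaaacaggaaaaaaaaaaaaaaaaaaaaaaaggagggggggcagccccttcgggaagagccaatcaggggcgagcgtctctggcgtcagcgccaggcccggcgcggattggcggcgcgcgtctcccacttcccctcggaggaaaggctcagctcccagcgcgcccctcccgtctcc
HOXD12: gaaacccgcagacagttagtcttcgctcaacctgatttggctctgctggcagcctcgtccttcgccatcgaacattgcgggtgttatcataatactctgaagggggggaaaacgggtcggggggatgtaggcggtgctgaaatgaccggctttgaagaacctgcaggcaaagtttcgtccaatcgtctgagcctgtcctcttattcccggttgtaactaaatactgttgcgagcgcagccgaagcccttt
No peak of any member reached the 300 bases around its start. The MSX2 peak covered bases 230 to 1021 after the start, so it began behind the printed stretch and within the gene. The middle of the HOXD12 peak was 1.89 kb after the start.

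**Figure D1:**
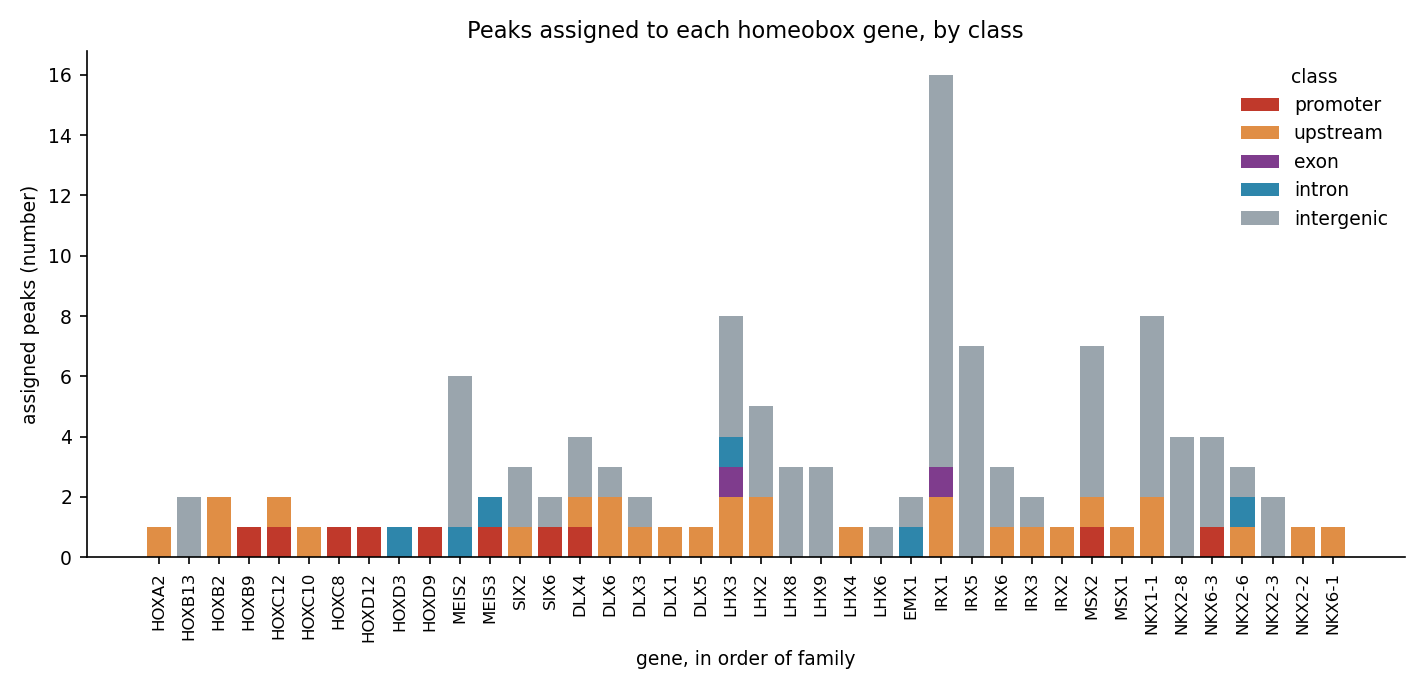
Number of peaks assigned to 40 of the 42 homeobox genes with a peak (vertical axis), with genes in order of family and bars stacked by peak class. IRX1 stands at 16 peaks, LHX3 and NKX1-1 at 8 each, and the 10 promoter-class peaks are in 10 different genes.

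Peaks were unevenly divided among the 42 genes. There were 16 genes with 1 peak, 9 with 2 and 17 with 3 or more, as the plot of peaks per gene shows. IRX1 had the most, with 16, followed by LHX3 and NKX1-1 with 8, MSX2 and IRX5 with 7, MEIS2 with 6 and LHX2 with 5. DLX4, NKX2-8 and NKX6-3 had 4 each. The families IRX, NKX and LHX held 29, 24 and 21 of the 123 peaks. OTX had none, and it was the only one of the 13 families without a peak.

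HOX genes. Of the 39 HOX genes, 11 had a peak, with 15 peaks in all, and 5 had one of the promoter class. Of the 47 other members, 31 had a peak, with 108 peaks, and 5 had one of the promoter class. Over all protein-coding genes 54.9% had a peak and 13.4% a promoter-class peak. The share with a peak was thus below that of all genes for HOX genes and above it for the other members. Counts for single families below are to be read beside the same shares. A HOX gene has close neighbours and a peak is assigned to the nearest starts, so several HOX genes can share a stretch in which only 1 of them carries the peak. Among the genes with a peak were HOXA2, HOXB2, HOXB9 and HOXB13, HOXC8, HOXC10 and HOXC12, and HOXD3, HOXD9 and HOXD12, and 28 HOX genes had none.

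The HOXD cluster, which patterns limbs and the posterior trunk, had the strongest HOX promoter-class peak. At HOXD12 (chr2:176965771-176967063, hg19) it held 27 tags (exact Poisson 95% interval 17.8 to 39.3) with a fold enrichment of 10.62 and a score of 78.94. Its fold enrichment was above 96.0% of the whole list and its score above 95.4%. The peak was 1293 bp long, where the median homeobox peak was 597 bp. HOXD9 (chr2:176988560-176989381) had 18 tags and a fold enrichment of 8.99, 1.52 kb after the start. HOXD3 had 15 tags and 8.17 in an intron. Between the listed starts of EVX2 and HAGLR, 104 kb, there were 6 peaks, of which 3 belonged to other genes: MIR10B, a microRNA within the cluster, had a promoter-class peak with 13 tags and 7.73, and HAGLR, a non-coding RNA, had 2.

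In the HOXC cluster 5 peaks lay in the 94.3 kb between the listed starts of HOXC13-AS and MIR615, and 4 were assigned to HOX genes. This window does not reach all HOXC genes. The stretch between the starts of HOXC8 and LOC100240735, which flank HOXC4 and HOXC5, held 2 further peaks beyond the MIR615 start. They were assigned to MIR615 or LOC100240735, with fold enrichments of up to 10.62. HOXC12 (chr12:54347404-54348323) had 18 tags at a fold enrichment of 8.17, 823 bp before the start, and a further peak 12.9 kb before it with 12 tags. That further peak was also assigned to HOXC13-AS, whose start was nearer, 2.34 kb away. HOXC8 (chr12:54401722-54402344), which acts at thoracic level, had 14 tags and 6.54, 736 bp before the start. HOXC10, expressed in lumbar motor neurons, had 16 tags and 7.38, 3.61 kb before its start. That peak was also assigned to HOTAIR, a long non-coding RNA that is not a member, whose start was 12.8 kb away. The highest fold enrichment of the window, 11.44 with 18 tags, was in another HOTAIR peak (chr12:54363866-54364844).

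The HOXB cluster had 4 peaks in the 184 kb between the listed starts of HOXB2 and HOXB13. HOXB9 (chr17:46701526-46701966) had 11 tags, the lowest count in the list, with a fold enrichment of 8.17, 1.98 kb after the start and so just inside the promoter class. HOXB2, a hindbrain gene, had peaks with 17 and 13 tags at 8.95 and 16.9 kb before its start. The remaining peak in the cluster belonged to PRAC1. HOXB13, a prostate regulator, had 2 peaks beyond the cluster window, with 12 and 11 tags and fold enrichments of 6.54 and 6.21, 32.8 and 28.8 kb before its start.

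The HOXA cluster had 1 peak between the listed starts of HOXA2 and EVX1, 140.1 kb apart. That peak (chr7:27146112-27146749) was assigned to HOXA2, which patterns the hindbrain. It held 15 tags with a fold enrichment of 11.44, 4.13 kb before the HOXA2 start. After it no peak was listed for 136 kb. HOXA3 to HOXA13, HOXA9 among them, lie between HOXA2 and EVX1 in gene order, and how the peak lies relative to HOXA3 was not resolved. Gaps at least as long made up 10.8% of the 45032 autosomal gaps between peaks and covered 42.7% of the bases between peaks, with a median gap of 32.7 kb. Peak density was 7.14 per Mb in HOXA (exact Poisson 0.181 to 39.8) and 21.8 per Mb in HOXB (5.93 to 55.7). It was 53.0 per Mb in HOXC (17.2 to 124) and 57.5 per Mb in HOXD (21.1 to 125), and these intervals overlapped one another. The windows end at genes that are listed because they have a peak, so the densities depend on the peaks that set them. A density over the whole genome was not set beside them.

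**Figure D2:**
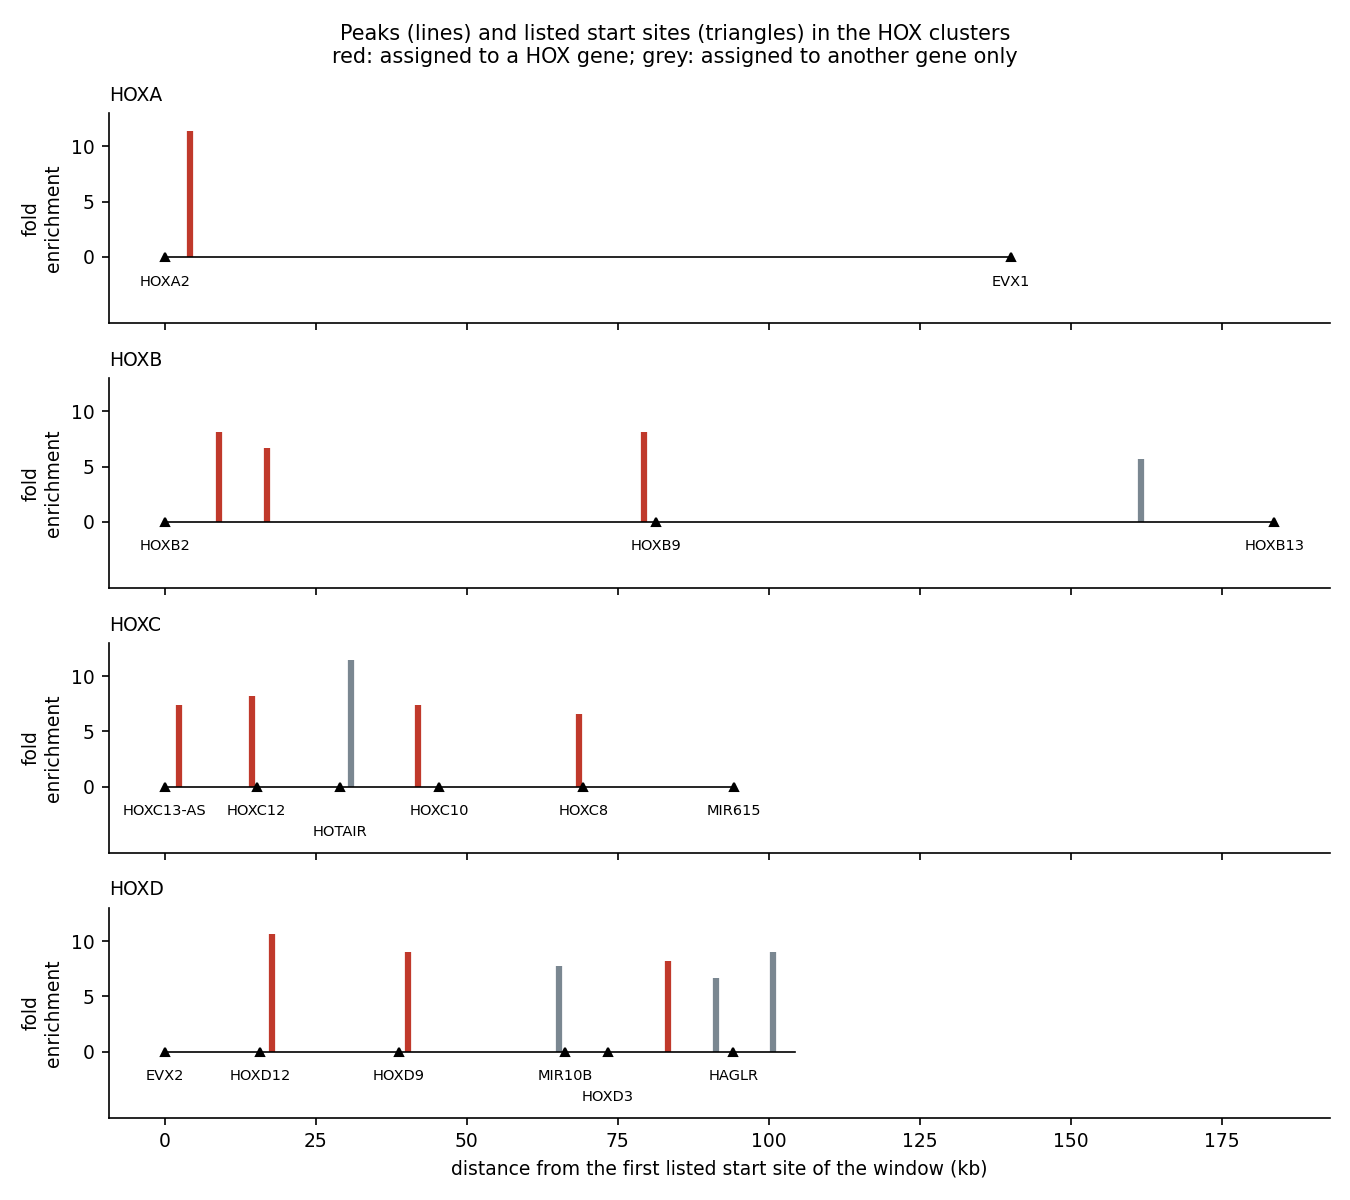
Fold enrichment of each peak (line height) against its distance in kb from the first listed start of each HOX cluster window. Red lines are peaks assigned to a HOX gene, grey lines peaks of other genes only, and triangles are the starts named in the peak list. HOXA has 1 line at 11.44 and then 136 kb without any, and HOXD has 6 lines.

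MEIS cofactors. MEIS3 had a promoter-class peak (chr19:47920557-47921219) of 14 tags and 6.54, 1897 bp after the start, and an intron peak of 13 tags with the larger fold enrichment, 9.80. MEIS2, needed in limb and heart development, had 6 peaks with 11 to 16 tags and fold enrichments of 6.54 to 8.98. These MEIS2 peaks were distant, since 5 were intergenic, from 72.4 to 352 kb before the start, and the other lay in an intron. MEIS1 had no peak assigned. Between the listed starts of MEIS1-AS3 and LINC01798, which flank it, there were 2 peaks in 141 kb, with 15 and 13 tags and a fold enrichment of 6.54 each, both assigned to the antisense gene MEIS1-AS2. Just outside that stretch a peak assigned to MEIS1-AS3, 7.78 kb from the MEIS1-AS3 start, had 14 tags and a larger fold enrichment, 9.80.

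DLX genes. DLX proteins act in craniofacial bones and forebrain interneurons, and 5 of the 6 genes had a peak. The DLX6 peak 10.1 kb before the start (chr7:96624466-96625061) had the highest fold enrichment of all homeobox peaks, 12.25, and the highest score, 112.5. It held 22 tags (exact Poisson 13.8 to 33.3). Both values lay high in the whole list, above 99.3% of the fold enrichments and 99.5% of the scores. DLX6 had a second upstream peak of 11 tags at 5.22 kb and an intergenic one of 11 tags at 99.95 kb. DLX5, its neighbour, had 14 tags and 8.85 at 10.3 kb before the start. DLX4 had a promoter-class peak (chr17:48044267-48044876) of 15 tags and 7.35, 1.98 kb before the start, and 3 peaks farther before it. DLX3, a hair and tooth regulator, had a peak on each side, both with 13 tags and 8.99. DLX1 had 1 peak of 12 tags and 6.54. DLX2 had none, and the 17.5 kb between the listed starts beside it, those of DLX1 and DLX2-DT, held none. Peaks assigned to DLX2-DT, which is not a member, lay 23.4 and 67.6 kb from the DLX2-DT start.

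Sine oculis genes. SIX6, a retina and pituitary regulator, had a promoter-class peak (chr14:60976879-60977372) with 12 tags and a fold enrichment of 5.72, below the list median of 7.35. Its other peak, at 20.1 kb, had 11 tags and 4.90. SIX2, which maintains nephron progenitors, had 3 peaks of 12, 17 and 12 tags with fold enrichments of 7.77, 8.17 and 8.54, from 9.75 to 99.9 kb before its start. SIX3, SIX4 and SIX5 had none. Peaks of other genes lay between their flanking starts: 3 for SIX4, in a stretch that also takes in SIX6, assigned to MNAT1 or SIX6, and 2 each for SIX3 and SIX5.

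LHX genes. LIM-homeobox proteins act in pituitary, forebrain, eye and gonad, and 6 of 7 members had a peak, none in the promoter class. LHX3, needed for the pituitary and motor neurons, had 8 peaks of 11 to 22 tags. They fell in 2 groups, 4 from 13.2 kb before to 4.22 kb after the start listed for each and 4 from 27.6 to 37.9 kb after theirs. The 2 upstream peaks were measured from another LHX3 start than the remaining ones. The largest fold enrichment at LHX3 was 9.42, in the distal group. LHX6, an interneuron gene, had the highest of the family, 9.80 with 15 tags. LHX9, a gonad regulator, had 3 distal peaks, and that of 21 tags and 9.14 had a score of 88.49. LHX2 had 5 peaks of 12 to 16 tags, LHX8 had 3 and LHX4 had 1 of 13 tags. LHX5 had none, while 1 peak in the 49.6 kb between its flanking starts was assigned to SDSL.

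EMX and OTX genes. These genes pattern the forebrain. EMX1 had an intron peak of 15 tags and 8.17 and an intergenic peak of 15 tags and 5.62. EMX2 had none, although 12 peaks lay in the 671 kb between PDZD8 and CASC2, assigned to CASC2 or EMX2OS. OTX1 and OTX2 had none. Their flanked stretches held 1 and 3 peaks, and the antisense gene OTX2-AS1 had 5, of which the highest fold enrichment was 10.62, with 16 tags.

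**Figure D3:**
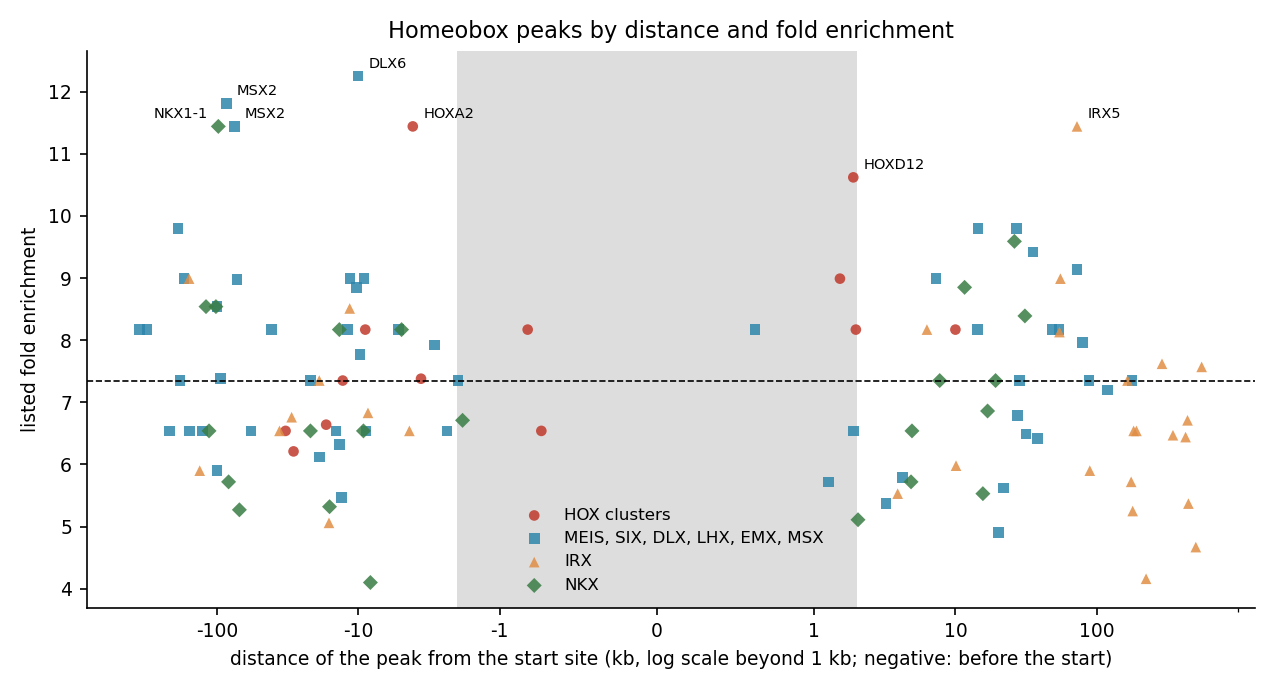
Listed fold enrichment of homeobox peaks (vertical axis) against signed distance from the start in kb (log scale beyond 1 kb), 1 point per pair of a peak and a gene for the same 40 genes, with symbols for gene groups. The grey band is the promoter class, the dashed line is the list median of 7.35, and the named points are those above 10. Of the named points only HOXD12 lies within the band.

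IRX genes. Iroquois genes lie in a cluster on chromosome 5 and another on chromosome 16, act in neural, heart and limb patterning, and had 29 peaks over 5 of 6 genes. IRX1 had 16 of them, spread over 581 kb from 29.7 kb before the start to 551 kb after it. Of these 13 were intergenic, 2 upstream and 1 in an exon. Their median was 25 tags (12 to 37), above the list median of 14, and their median fold enrichment was 6.21 (4.16 to 8.13), below the list median of 7.35. The IRX1 peak with the most tags of any member, 37 (exact Poisson 26.1 to 51.0), had a fold enrichment of 5.25 and a score of 94.69. That peak was 1357 bp long, where the median homeobox peak was 597 bp. Tag counts are given per peak and were not scaled to its length. IRX2, on the same chromosome, had 24 tags and 8.51 at 11.5 kb before the start.

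Most peaks of the chromosome 16 genes held fewer tags. IRX5 had 7 intergenic peaks, from 6.28 to 190.5 kb after the start. The closest had 26 tags, 8.17 and a score of 87.88, and the one at 72.3 kb had 15 tags and the highest fold enrichment of the family, 11.44. The other 5 had 12 to 14 tags. IRX3 had 2 peaks of 14 and 12 tags at 6.54 each, and IRX6 had 3 of 13, 17 and 13 tags. IRX4 had no peak assigned, and 1 peak lay in the 30.8 kb between its flanking starts.

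The background behind each peak was read back from its p-value and tag count, on the untested assumption that the p-value is a Poisson probability. For 25273 of 45360 peaks it lay within 1% of 5.94 tags per kb, the genome-wide value. Among homeobox peaks this held for 67 of 123 (54.5%, Wilson 45.7 to 63.0%), with 55.7% in the whole list. All 16 IRX1 peaks lay above the genome-wide value, at 1.23 to 2.16 times, and the IRX2 peak lay at 1.44 times. The 7 IRX5 peaks were all at it. Raised values were not particular to these genes. All 8 LHX3 peaks lay at 1.04 to 1.38 times, and all 3 LHX9 peaks at 1.16 to 1.37 times. Of the 11 homeobox peaks with a background over 1.5 times the genome-wide value, 10 were at IRX1. Of the 19 with 20 or more tags, 10 were at IRX1, and without IRX1 the share of such peaks was 8.41% instead of 15.4%, with 14.02% in the whole list. Without IRX1 the share over 1.5 times was 0.935% instead of 8.94%, with 6.46% in the whole list. On chromosome 5, 43.5% of all peaks were at the genome-wide background, on chromosome 16 76.4%. The part that a raised local background has in the IRX1 peaks was not tested.

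**Figure D4:**
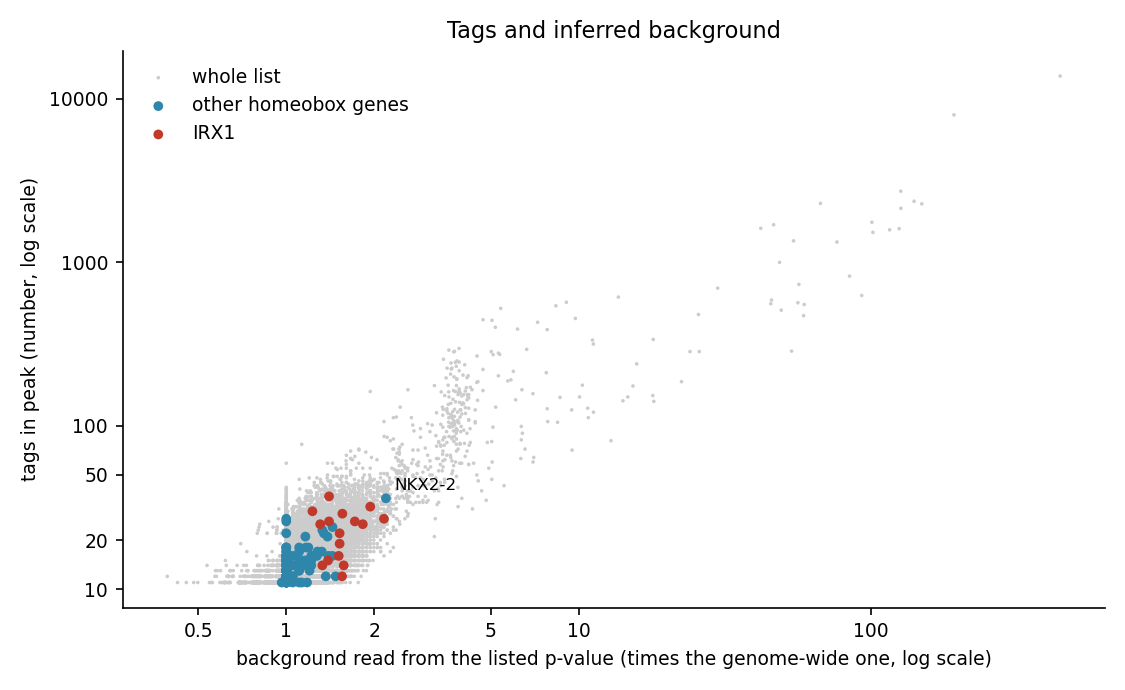
Tags in the peak (vertical axis, log scale) against the background read from the listed p-value, as a multiple of the genome-wide value (horizontal axis, log scale), with the whole list in grey, IRX1 in red and the other homeobox genes in blue. IRX1 points lie at 1.23 to 2.16 times, and NKX2-2 is the blue point at 2.19.

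MSX genes. MSX proteins act in skull, tooth and limb development, and both genes had a peak. MSX2 had 7, and 2 of them were among the highest fold enrichments of all members: 11.81 with 18 tags (chr5:174065713-174066168) and 11.44 with 18 tags, 85.6 and 75.6 kb before the start. A further 3 lay 157 to 189 kb before the start with 12 to 15 tags and fold enrichments of 6.54 to 9.80. The promoter-class peak (chr5:174151814-174152605) had 16 tags and 8.17, and the upstream peak, 11.5 kb before the start, had 15 and 8.99. The backgrounds of the MSX2 peaks were 1.00 to 1.11 times the genome-wide value. MSX2 lies far from IRX1 on chromosome 5, with listed starts at bases 174151584 and 3595945. MSX1 had 1 peak of 11 tags and 6.54, 2.37 kb before the start.

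NKX genes. NKX proteins specify heart, gut, pancreas, prostate and ventral neural tube, and 8 of 13 members had a peak. NKX1-1 had 8, of which 5 lay 82.9 to 119.7 kb before the start. The one at 97.97 kb had 16 tags, a fold enrichment of 11.44 and a score of 72.30. NKX2-8 had 4 peaks of 12 to 15 tags, up to 9.59. NKX6-3, a stomach gene, had 4 of 15 to 23 tags, among them the only NKX promoter-class peak (chr8:41509868-41510477) of 15 tags and 6.71, 1.84 kb before the start.

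NKX2-2, a pancreatic and neural regulator, had 1 peak that stood apart. It held 36 tags (exact Poisson 25.2 to 49.8), second only to the IRX1 peak of 37, and had the lowest fold enrichment of all members, 4.10, with a score of 41.71. Its background was 2.19 times the genome-wide value, the highest of the 123. It was also the longest of the 123 peaks, at 1393 bp, where the median was 597 bp. NKX2-6 had 3 peaks of 16 tags with 5.11 to 5.32, NKX2-3 had 2 of 13 and 11 tags, and NKX6-1, a beta cell gene, had 1 of 13 tags and 8.17. On chromosome 8, which holds NKX2-6 and NKX6-3, 1.76% of all peaks were at the genome-wide background. None of the 7 peaks of NKX2-6 and NKX6-3 was at it, and the part of that background in their fold enrichments was not tested. NKX1-2, NKX2-4, NKX2-5, NKX3-2 and NKX6-2 had no peak.

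In strength the members resembled the whole list. Their median fold enrichment was 7.35, from 4.10 to 12.25, with 7.35 over all peaks. Their median was 14 tags, with 14 in the list, and the median score was 48.15, with 48.12. A fold enrichment of 10 or more was found for 7 peaks (5.69%, Wilson 2.78 to 11.3%), where 4.63% of the whole list reached it. These were DLX6, 2 at MSX2, NKX1-1, IRX5, HOXA2 and HOXD12. HOXD12, at 10.62, was the lowest inside the limit, and the highest outside it were 9.80 at MSX2, MEIS3 and LHX6. High scores did not always go with high fold enrichments. Of the 10 highest scores, 3 were at IRX1, with fold enrichments of 5.25 to 8.13.

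The position of the peaks differed from the whole list. Intron peaks were 6 of 123 (4.88%, Wilson 2.25 to 10.2%), with 34.9% in the list, and intergenic peaks were 76 (61.8%, 53.0 to 69.9%), with 38.7%. Upstream peaks, from 2 to 20 kb before a start, were 29 (23.6%, 16.9 to 31.8%), with 16.6%. Homeobox genes are short: the median listed length was 5.08 kb, with 33.7 kb for all protein-coding genes in the list. Among peaks of genes up to 20 kb long, intron peaks were 5.80% of 16088 and intergenic peaks 56.8%, and for homeobox genes of that length 4.63% and 60.2% of 108. With length limited in this way, the homeobox shares lay close to those of all genes of that length, homeobox genes included. The part that gene length has in the difference from the whole list was not tested. The median distance from the start was 27.1 kb, with 36.2 kb in the list, and 63 peaks (51.2%, Wilson 42.5 to 59.9%) lay before the start, with 39.2% in the list and 51.4% for peaks of genes up to 20 kb.

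**Figure D5:**
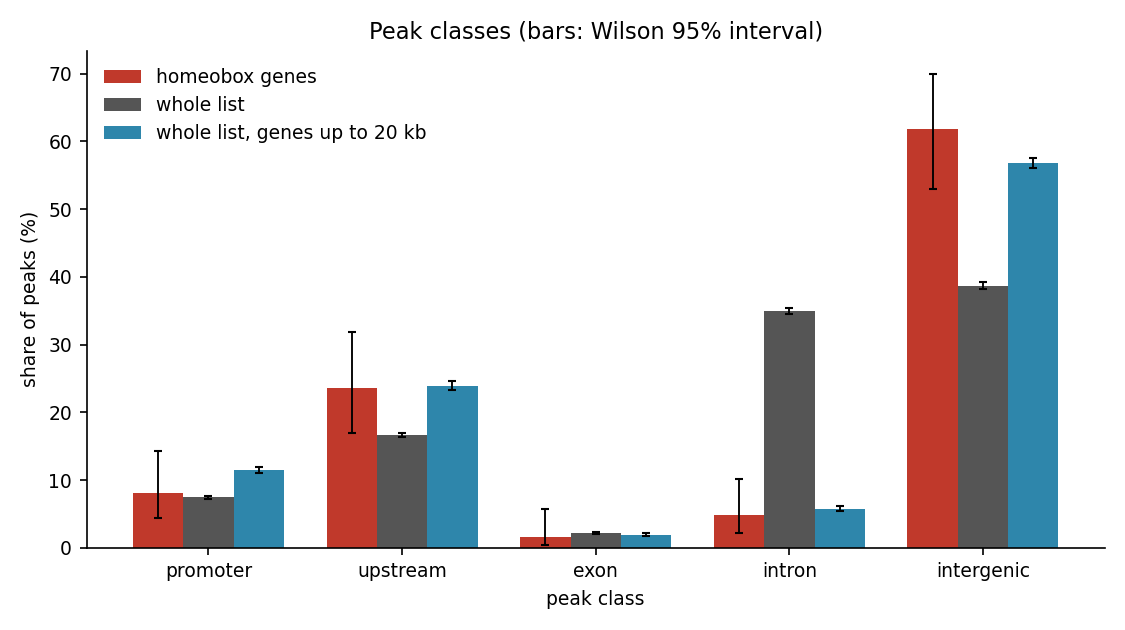
Share of peaks in percent (vertical axis) by class for homeobox genes, the whole list and the list limited to genes up to 20 kb, with Wilson 95% intervals for counting error. The homeobox bar for introns (4.88%) lies near that of short genes (5.80%) and far under that of the whole list (34.9%).

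A gene with no assigned peak need not be without a peak nearby. The 44 such members lay in 28 stretches between the listed starts of flanking genes, 15.8 to 671 kb long. For 40 of the 44 the stretch held at least 1 peak, and for DLX2, HOXC6, HOXD13 and NKX2-4 it held none. Members that share a stretch are each counted. The flanking genes are listed because they have a peak, and the median gap between peaks was 32.7 kb, so a peak inside was likely beforehand. The same count for other genes without a peak was not made, so no conclusion about these members is drawn from it. HOXB3 to HOXB8 share a stretch of 81.3 kb with 3 peaks, all assigned to HOXB2 or HOXB9. The largest number was 26 peaks in the 406 kb around NKX6-2, assigned to CFAP46 and INPP5A. Genes whose symbol is a member's name with a hyphenated ending, such as antisense genes, were left out and had 20 more peaks over 8 genes. EMX2OS, whose symbol has no hyphen, is not in that count.

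Other gene groups were counted in the same way, beside the 54.9% of all protein-coding genes with a peak and the 13.4% with a promoter-class peak. Of 77 homeobox genes outside these families, 53 had a peak (68.8%, Wilson 57.8 to 78.1%) and 12 a promoter-class peak (15.6%, 9.15 to 25.3%). Regulators of HOX chromatin and HOX cofactors had a peak in 14 of 27 (51.9%, 34.0 to 69.3%). Among them RING1, a Polycomb subunit, had the only promoter-class peak, with 22 tags and 4.74. PAX genes, which carry a paired domain, had a peak in 7 of 9 (77.8%, 45.3 to 93.7%). Olfactory receptor genes, which encode the odour receptors of the nose, had one in 118 of 390 (30.3%, 25.9 to 34.99%). The interval lay above the share of all protein-coding genes for the other homeobox genes and below it for the olfactory receptors, and it held that share for the remaining 2 groups. These shares are not matched for gene length or for distance between genes.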

How the data were processed

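The authors ran PAX-8 ChIP-Seq on C18-3OH-treated THP-1 foam cells, and 1 ChIP and 1 Input library were used here. The deposited peak list (hg19) gives, per the file headers, the tag count in each peak, the fold enrichment as a ratio, a score, which is the p-value's negative logarithm times 10, and the FDR in percent. FastQC and hg19 come from the submitters' processing notes. Aligner, duplicate removal, caller and definition of the fold enrichment were not given in the sources used here. How the last would move with read depth or Input coverage is therefore unknown.

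The 103443 lines, each a peak and a transcript, were reduced to 45360 unique positions. No reads were processed. Shares have Wilson and counts exact Poisson 95% intervals. The background per kb was solved from each p-value (base 10), taken as the Poisson probability of exceeding the tag count. Scores simulated with the same formula checked the calculation only. Whether the listed p-values follow that formula was not tested. Symbols were matched to RefSeq (GRCh38.p14) by accession (15619), symbol (66) or synonym (35), and 16 were not matched. That table gave names and gene order only, and sequences are RefSeq's, with no conversion between builds. Flanking genes are the nearest listed ones lying wholly to either side.

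The members and lists were chosen with earlier results of these data known. Named were members with a promoter-class peak, the 10 highest fold enrichments and scores, the 10 genes with most peaks, the top gene of each family, HOX genes with a peak, MEIS1, HOXA9, and peakless members of families of up to 6 genes. Other members were named after their values were seen, to account for the families. A few genes are not reported here, although they are in the totals. Alternatives were other limits on fold enrichment, FDR and distance, merging of peaks within 500 bp, other gene sets and omission of chromosomes 6 and 8. Calculations used scipy 1.17.1, pandas 2.3.3 and numpy 2.4.6 under Python 3.11.15, and plots matplotlib 3.10.9.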

Additional observations from a re-analysis of the deposited data

How the results depend on the processing

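Of 37 alternatives 28 stayed within their limits and 9 moved a value. With a fold enrichment of at least 10, the peaks fell to 7, the genes with a peak to 7, the genes with a promoter peak to 1 and the peaks of the HOX clusters to 2. With promoters taken as within 5 kb of the start, 19 genes had one and the promoter share rose from 8.13% to 17.9%. The median fold enrichment was 7.76 over promoter peaks only. A limit of 9 in place of 10 gave 13 peaks. With only bases before the start, TCACGC was in 1.96% of windows (Wilson 0.347 to 10.3%) in place of 5.88%, with 6.59% in place of 7.90% over all windows. Without IRX1, chosen after seeing the data, 107 peaks remained with a median of 7.35. With LHX1 and NKX2-1 there were 124 peaks, 43 genes with a peak and 11 with a promoter peak. No paired analysis was possible because there is 1 library of each kind and 1 peak list. Peaks near 11 tags have wide counting intervals (5.49 to 19.7), so differences among them were not detectable at this depth.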
